A study of Arabidopsis thaliana with 6 samples.

Results

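The β-expansins of Arabidopsis thaliana were followed in petioles, the leaf stalks, of plants in a dense canopy and of plants grown alone. The genes were taken by symbol, as every gene named EXPB and a digit that had a probe set listed with 1 gene. Of the 6 β-expansin genes in the RefSeq gene table, 4 met this rule, and they are 4 of 13356 genes with such a probe set. They were EXPB1 (AT2G20750), EXPB2 (AT1G65680), EXPB3 (AT4G28250) and EXPB5 (AT3G60570), each with 1 probe set. EXPB4 and EXPB6 were not analysed here.

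The 6 Affymetrix arrays fall into 2 groups of 3. Canopy plants stood at 2066 plants per m2 in their own pots from the transfer to pots on, and single plants, the control, had the same kind of pot kept apart. The chamber gave both groups 9 h of light and 15 h of darkness at 20°C. Petioles were taken at a leaf area index of 0.9, the area of leaves over that of the ground, some 23 days after sowing. Each array measured a pool of 2 young petioles from each of 4 plants. The labels name no genotype, accession or transgene for either group.

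Expansins are secreted proteins that loosen the plant cell wall at acid pH without cutting its polymers, which lets a growing cell extend. The family has α-expansins (EXPA), β-expansins (EXPB) and expansin-like proteins (EXLA and EXLB), for which no wall-loosening activity has been established. β-Expansins are best known from grasses, where the pollen forms are major allergens and where maize EXPB1, a different gene from Arabidopsis EXPB1, acts on xylan-rich walls. Petioles of Arabidopsis elongate when neighbours shade them, and growth of this kind needs the wall to yield.

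EXPB3 was lower in the canopy, at 46.7% of its level in single plants. EXPB1 stood at 76.7% and did not pass the test across all probe sets, although its groups did not overlap. EXPB2 and EXPB5 gave signals near the bottom of the scale and showed no change that passed the test. With limma, at a Benjamini-Hochberg adjusted p under 0.05 over all 22746 probe sets tested, 1 of the 4 genes fell and 0 rose, against 0.251% of all probe sets that fell and 0.677% called in either direction. The groups did not overlap, with the canopy lower, for 2 of the 4, against 9.3% of all probe sets, and 17.0% of all probe sets were without overlap in either direction. Both EXPB1 and EXPB3 were picked for description with earlier results of these data known, so these counts describe them and support nothing further.

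EXPB3 stood at 3.95, 3.41 and 4.13 in canopy replicates 1, 2 and 3, against 4.91, 5.06 and 4.81 in single replicates 1, 2 and 3 (log2 RMA values). All canopy arrays were below all single-plant arrays, with a gap of 0.68 between the highest canopy and the lowest single-plant value. Over the 9 pairs of a canopy and a single-plant array, the difference ran from -1.65 to -0.68. The group means were 3.83 ± 0.38 for canopy arrays and 4.93 ± 0.13 for single-plant arrays (log2, SD, n = 3 each). EXPB3 fell by 1.097 ± 0.174 on the log2 scale (SE, n = 3 per group; limma adjusted p = 0.0347), a 2.14-fold decrease with a 95% interval of 1.63 to 2.81. Only 10 of the 22746 probe sets had a more negative difference, 8 of them among the called ones, while 103 had a smaller p.

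The canopy arrays were less alike for EXPB3 than the single-plant arrays. Their values spanned 0.72, against 0.25 in single plants (log2). A span as large as that of the canopy arrays was rare, since it lay at percentile 96.5 of all probe sets, while the span of the single-plant arrays lay at percentile 60.5. Canopy replicate 2 was the lowest array. Without it the difference was -0.89 (limma adjusted p = 0.0481).

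The EXPB3 call did not hold in every fit. It was lost with single replicate 1, 2 or 3 left out (limma adjusted p = 0.115, 0.148 and 0.0937), without canopy replicate 1 (0.0526) and in the fit with a replicate block (0.0832). Fewer arrays enter the first 4 of these fits. The direction in them was fixed beforehand by groups that do not overlap.

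**Figure D1:**
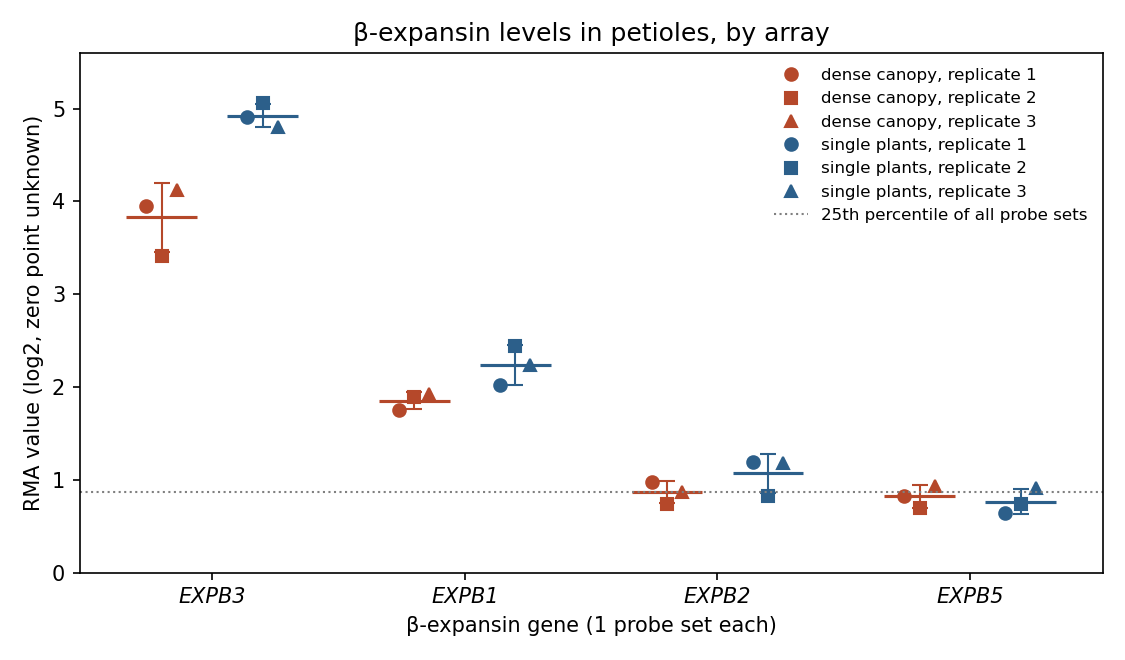
RMA values (log2, zero point unknown) of the 4 β-expansins on each array. Points are arrays, horizontal bars are group means and vertical bars are SD (n = 3). EXPB3 is below the single-plant arrays on all 3 canopy arrays, EXPB1 is so by a narrow gap, and EXPB2 and EXPB5 lie near the dotted 25th percentile of all probe sets.

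EXPB1, the second measured β-expansin with a signal above the median probe set, stood at 1.75, 1.89 and 1.92 in canopy replicates 1, 2 and 3, against 2.02, 2.45 and 2.24 in single replicates 1, 2 and 3 (log2). The groups did not overlap, but the gap was 0.10. Here the single-plant arrays were the more spread ones, with a span of 0.42 against 0.17 in the canopy, which is the reverse of EXPB3. EXPB1 averaged 1.85 ± 0.09 on canopy arrays and 2.24 ± 0.21 on single-plant arrays (log2, SD, n = 3 each). The difference was -0.38 ± 0.12 (log2, SE, n = 3 per group; limma adjusted p = 0.232), or 1.30-fold lower with a 95% interval of 1.08 to 1.58. The unadjusted p was 0.0116, and 7.11% of all probe sets were lower at an unadjusted p under 0.05. Over all alternative fits EXPB1 had limma adjusted p between 0.189 and 0.490 and passed in none of them.

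The array order within a group was not shared by these genes. In the canopy, EXPB3 was lowest in replicate 2 and EXPB1 in replicate 1. In single plants, both were highest in replicate 2.

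The 2 genes were set against each other through their changes, since signals of different probe sets do not compare transcript amounts. The value of EXPB3 minus that of EXPB1 within an array was 2.20, 1.51 and 2.21 on the canopy arrays, against 2.89, 2.61 and 2.57 on the single-plant arrays (log2). The 2 sets of values did not overlap. The mean was 1.97 ± 0.40 on canopy arrays and 2.69 ± 0.17 on single-plant arrays (log2, SD, n = 3 each). Canopy minus single, this came to -0.71 (log2). On these arrays the fold decrease of EXPB3 was thus 1.64 times the fold decrease of EXPB1. Changes of different probe sets are not fully comparable either. EXPB1 had a mean signal of 2.05 and EXPB3 of 4.38 (log2), and a fold change nearer the bottom of the scale understates the change in transcript. The part of this in the ratio was not tested. The two-sided exact permutation test over the 6 arrays gave p = 0.1, the smallest that 3 against 3 allow, and cannot reach 0.05.

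EXPB2 had its mean signal at percentile 35.2 of all probe sets. It stood at 0.98, 0.74 and 0.87 in the canopy, against 1.20, 0.83 and 1.18 in single plants (log2, replicates 1, 2 and 3). The groups overlapped because single replicate 2 lay within the canopy range. The difference was -0.20 ± 0.12 (log2, SE, n = 3 per group; limma adjusted p = 0.580), with a 95% interval of -0.48 to 0.07.

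EXPB5 was lower still, at percentile 13.8. Its values were 0.83, 0.70 and 0.94 in the canopy, against 0.64, 0.74 and 0.91 in single plants (log2, replicates 1, 2 and 3), and the groups overlapped. The difference was 0.06 ± 0.11 (log2, SE, n = 3 per group; limma adjusted p = 0.900), with a 95% interval of -0.18 to 0.30. No detection calls were used, so whether EXPB2 and EXPB5 transcripts were present at all was not settled, and a fold change near the bottom of the scale understates the change in transcript. The percentiles rank probe set signals, not transcript amounts.

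Technical controls moved with the groups, in exact permutation tests that cannot go below p = 0.1. The spiked bacterial control dap, added to the RNA and not made by the plant, averaged 3.39 ± 0.17 on canopy arrays and 3.72 ± 0.09 on single-plant arrays (log2, SD, n = 3 each; exact permutation p = 0.1). An actin control has probe sets at both transcript ends, and its 3′ signal exceeded its 5′ signal, a measure of RNA integrity, by 1.39 ± 0.11 on canopy arrays and 1.64 ± 0.09 on single-plant arrays (log2, SD, n = 3; exact permutation p = 0.1), and for ubiquitin by 0.27 ± 0.08 on canopy arrays and 0.08 ± 0.14 on single-plant arrays (exact permutation p = 0.2). Their part in the β-expansin results was not tested. With equal array medians the EXPB3 difference was -1.08 (limma adjusted p = 0.0327). That setting only shifts each array by a constant and is no test of these controls.

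Of 62 marker genes for 9 cell types, 9 had a named probe set and 0 passed the limma test, against 0.677% of all probe sets called. At that share so few markers cannot show whether cell types changed, and in no case could a whole list be read. The mesophyll gene RCA, rubisco activase, had a mean of 11.2 (log2), as green tissue has. The 3 measured genes of the 7 on the guard-cell list summed to 2.86 to 3.12 on canopy arrays and 2.84 to 3.10 on single-plant arrays (log2 values added). This sum joins opposite signs, since FAMA, SPCH and MUTE differed by 0.22, -0.15 and -0.05 (log2). SPCH and MUTE had mean signals of 0.77 and 0.83, below the 25th percentile of all probe sets at 0.87 (log2). The sum therefore does not show whether the share of guard cells changed. The 2 measured root markers of 8, the root-hair expansins EXPA7 and EXPA18, summed to 1.79 to 1.93 on canopy arrays and 2.00 to 2.28 on single-plant arrays (log2 values added), near the bottom of the scale. The phloem, meristem and pollen lists had 1 measured marker each, SWEET11, CLV3 and ANX1, with differences of 0.18, -0.11 and 0.11 (log2). No epidermis, xylem or cambium marker had a named probe set. In these pooled petioles, fewer cells that express EXPB3 and less EXPB3 RNA per cell cannot be told apart.

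Among the other expansins, 14 genes had a named probe set and 0 passed the limma test, against 0.677% of all probe sets called. Of the 14, 11 had a negative and 3 a positive difference, against 51.0% of all probe sets with a negative one, and the median was -0.15 against -0.003 over all probe sets tested. Many of the 14 gave signals near the bottom of the scale, down to a mean of 0.72 (log2), which limits what these signs show. EXPB3 was the one expansin called among the 18 measured, of 34 in the RefSeq table. The median of the 4 β-expansins was -0.29 (log2).

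The 4 measured expansin-like genes all had a negative difference, from -0.60 to -0.14 (log2), against 51.0% of all probe sets with a negative one. The groups overlapped for EXLB1, at -0.34, and for EXLA3, at -0.14 (log2). EXLA3 had a mean signal of only 0.72, below the 25th percentile of all probe sets at 0.87 (log2). EXLA2 stood at 3.29, 3.47 and 3.06 in the canopy, against 3.97, 3.73 and 3.91 in single plants (log2, replicates 1, 2 and 3), without overlap. Its difference was -0.60 ± 0.12 (log2, SE, n = 3 per group; limma adjusted p = 0.0801). EXLA1 differed by -0.46 ± 0.14 (log2, SE; limma adjusted p = 0.209), also without overlap.

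The 10 α-expansins ran from -0.43 to 0.20 with a median of -0.10 (log2), and 7 of them had a negative difference. Most gave low signals. EXPA7, EXPA9, EXPA16, EXPA18, EXPA20, EXPA21 and EXPA24 had mean signals of 0.82 to 1.13, below the median probe set at 1.29 (log2). The count and the median therefore rest largely on signals near the bottom of the scale. EXPA15 was the lowest, at -0.43 ± 0.13 (log2, SE; limma adjusted p = 0.221). EXPA8, EXPA21 and EXPA24 were the 3 with a positive one, at 0.20 ± 0.16, 0.04 ± 0.08 and 0.03 ± 0.10 (log2, SE). The 95% interval of EXPA15 (-0.73 to -0.13) overlapped slightly with that of EXPB3 (-1.49 to -0.70), and the difference between their changes was not tested.

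**Figure D2:**
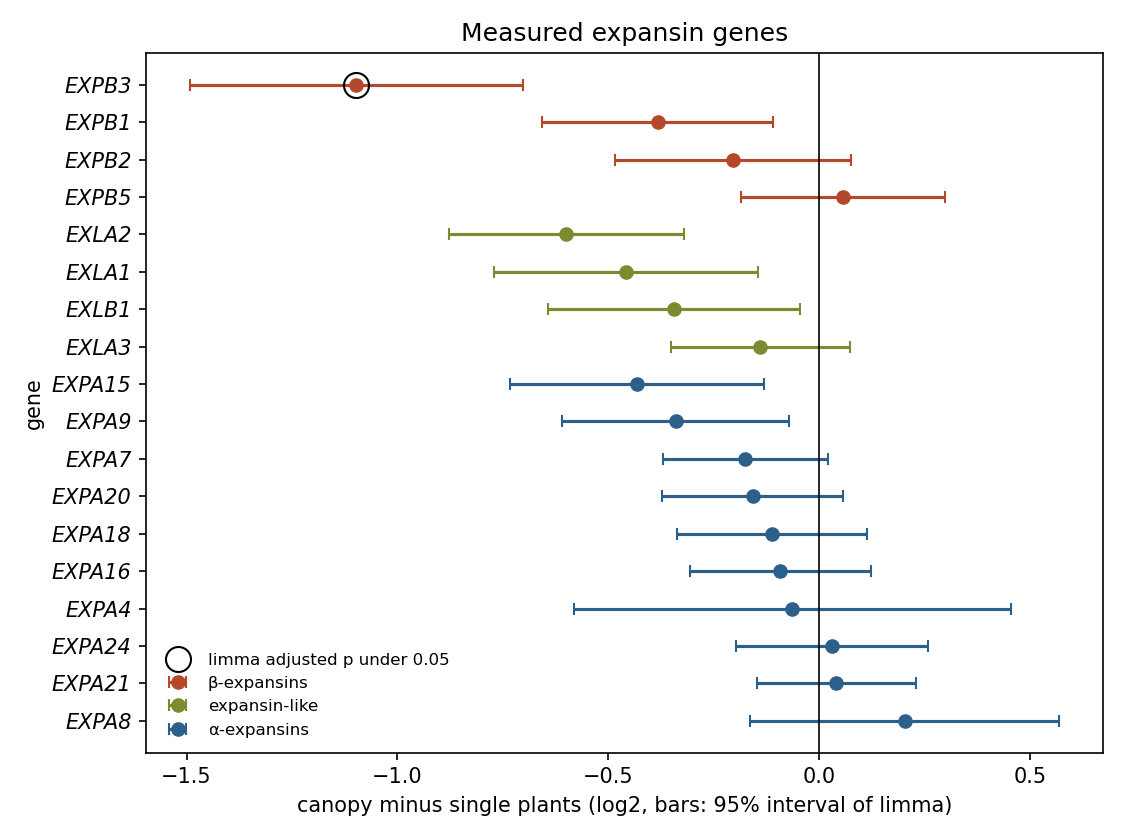
Difference between canopy and single plants (log2) for the 18 measured expansin genes, with the 95% interval of the limma fit as bars, β-expansins at the top. EXPB3, circled, is the only one with an adjusted p under 0.05. Of the 18 points, 14 lie below 0, many of them for genes with signals near the bottom of the scale.

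The other wall genes were read from lists of XTH, xylan, xyloglucan, cellulose, pectin, arabinogalactan-extensin and plasma membrane proton pump genes. Of the 33 measured genes in them, 1 passed the limma test, with a decrease, against 0.251% of all probe sets that fell and 0.677% called in either direction, and 32 did not. The arabinogalactan-extensin and proton pump lists had no gene with a named probe set. Such genes may still be on the array, since 8730 probe sets had no gene listed. The gene that fell was GH9B13, of the endoglucanases of glycosyl hydrolase family 9, which are linked to cellulose. It stood at 1.75, 1.46 and 1.53 in the canopy, against 2.51, 2.34 and 2.27 in single plants (log2, replicates 1, 2 and 3). Its groups did not overlap, and it fell by 0.80 ± 0.11 on the log2 scale (SE, n = 3 per group; limma adjusted p = 0.0207). Its adjusted p exceeded 0.05 in 5 of the 6 fits that left out 1 array (0.0228 to 0.103), all but the one without canopy replicate 1.

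Xylan is the polymer that grass β-expansins act on, and only 2 of its 26 listed genes had a named probe set. These genes, IRX15-L and IRX15, differed by -0.44 ± 0.11 and -0.14 ± 0.09 (log2, SE; limma adjusted p = 0.134 and 0.625). Their mean signals were 1.16 and 1.09, below the median probe set at 1.29 (log2). The groups of both did not overlap, with the canopy lower as in 9.3% of all probe sets, and the gap of IRX15 was only 0.0042. Among the 3 measured xyloglucan genes, CSLC6 and CSLC12, of the glucan synthase family that makes the xyloglucan backbone, differed by -0.28 ± 0.08 and 0.09 ± 0.10 (log2, SE). The mean signal of CSLC12 was 0.84, below the 25th percentile of all probe sets at 0.87 (log2).

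Of the 9 measured XTH genes, which cut and rejoin xyloglucan, 7 had a positive difference, and the median was 0.07 (log2). Among the positive ones, XTH18, XTH20, XTH21, XTH26 and XTH29 had mean signals of only 0.79 to 0.93 (log2), near the bottom of the scale. The count and the median therefore rest largely on low signals. XTH19 and XTH16 differed by 0.88 ± 0.20 and -0.47 ± 0.26 (log2, SE; limma adjusted p = 0.103 and 0.525). The XTH16 difference moved with the arrays used, to -0.20 without canopy replicate 3 and to -0.76 without canopy replicate 1. XTH19 passed in 2 alternative fits, with an intensity trend (0.0433) and without canopy replicate 3 (0.0184). Of the 3 pectin genes, ADPG1, a polygalacturonase of cell separation, and PME61, of the pectin methylesterases, differed by 0.24 ± 0.09 and 0.21 ± 0.11 (log2, SE). The mean signal of ADPG1 was 0.80, below the 25th percentile of all probe sets at 0.87 (log2). COB, which orients cellulose microfibrils, differed by 0.15 ± 0.09 (log2, SE).

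The genes with the profiles most like that of EXPB3 were sought among 5982 other genes whose probe set lay above the median level. Likeness was the root-mean-square difference between profiles over the 6 arrays after each gene's mean was taken off, so it compares shape and size of change but not level. The 5 closest were AT3G15680, BZIP61, AT2G28410, PPR596 and AT4G34560, at 0.19 to 0.22 log2 units, against 0.59 for a flat profile. On all of them, as for EXPB3, canopy replicate 2 was the lowest of the 6 arrays, which the measure itself favours.

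BZIP61, a bZIP transcription factor, stood at 0.99, 0.73 and 1.15 in the canopy, against 1.72, 1.83 and 1.60 in single plants (log2, replicates 1, 2 and 3). Its groups did not overlap. It fell by 0.76 ± 0.12 on the log2 scale (SE, n = 3 per group; limma adjusted p = 0.0369). The mean signal of BZIP61 was 1.34, just above the median probe set at 1.29 (log2). Its group means were 0.96 in the canopy and 1.71 in single plants, so it entered the search only through its single-plant arrays. Its canopy values lay near the bottom of the scale. PPR596, a pentatricopeptide repeat protein, fell by 0.90 ± 0.15 (log2, SE, n = 3 per group; limma adjusted p = 0.0423). AT3G15680, AT2G28410 and AT4G34560 differed by -0.93 ± 0.21, -0.79 ± 0.15 and -0.72 ± 0.22 (log2, SE; limma adjusted p = 0.0985, 0.0669 and 0.213). AT3G15680 passed with an intensity trend (0.0388) and without canopy replicate 1 (0.0408), and AT2G28410 with the filter on low levels (0.0493) and with an intensity trend (0.0477). Without canopy replicate 2 the difference of AT4G34560 was -0.45. All 5 had lower canopy values without overlap, against 9.3% of all probe sets, and 2 of the 5 fell, against 0.251%. The genes were picked for a profile like that of EXPB3, whose groups do not overlap, on the same arrays, so nothing is read from these counts. The BZIP61 call was lost with the replicate block (0.09996) and in 5 of the 6 fits that left out 1 array, as was that of PPR596 in 5 of 6. PPR596 also missed the threshold after a repeated quantile normalization (0.0536) and among probe sets of 1 gene alone (0.0505).

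For EXPB1, the 5 closest of 5982 profiles were those of AT5G67130, WLIM2a, AT2G39580, AT2G25270 and AT5G27400, at 0.04 to 0.07 log2 units, against 0.23 for a flat profile. WLIM2a belongs to the LIM-domain proteins that bundle actin, and it differed by -0.35 ± 0.10 (log2, SE; limma adjusted p = 0.180). None of the 5 passed, with differences of -0.37 to -0.34 and limma adjusted p of 0.142 to 0.373, against 0.677% of all probe sets called. Of the 5, 3 had groups that did not overlap, with the canopy lower, against 9.3% of all probe sets. They too were picked for likeness to a gene whose groups do not overlap, so nothing is read from these counts. The distance shrinks with the size of the change, so distances of EXPB1 and EXPB3 are not compared. The profiles of EXPB2 and EXPB5 were nearly flat, at 0.17 and 0.11 log2 units from a flat one, and their closest genes are not named.

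**Figure D3:**
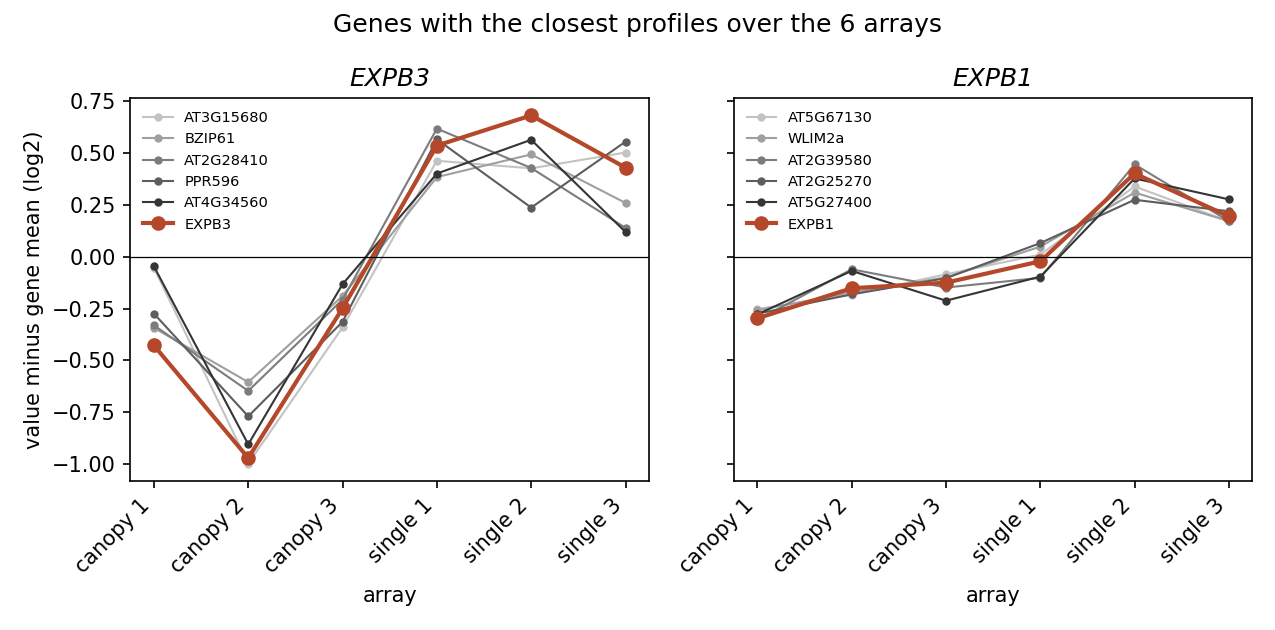
Values on each array minus the gene's mean over the 6 arrays (log2), for EXPB3 (left) and EXPB1 (right) in red and the 5 genes with the closest profiles in grey. The EXPB3 group reaches its lowest point on canopy replicate 2, while the EXPB1 group stays within a narrower range and is highest on single replicate 2.

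No neighbour on the chromosome changed by the limma test. Of the 16 genes that lie up to 2 places from the 4 β-expansins in the RefSeq table, 9 had a named probe set and 0 passed, against the 0.677% called among all probe sets. AT4G28260, directly next to EXPB3, stood at 3.02, 2.73 and 2.42 in the canopy, against 2.155, 2.38 and 1.67 in single plants (log2, replicates 1, 2 and 3). The canopy arrays were all higher, by a narrow margin, and the difference was 0.65 ± 0.20 (log2, SE, n = 3 per group; limma adjusted p = 0.221). On the other side of EXPB3, AT4G28240 differed by 0.17 ± 0.11 and AT4G28230 by -0.01 ± 0.09. AT2G20740 and AT2G20760, which flank EXPB1, differed by 0.10 ± 0.12 and 0.12 ± 0.12, and AT2G20725 by -0.20 ± 0.19 (log2, SE).

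**Figure D4:**
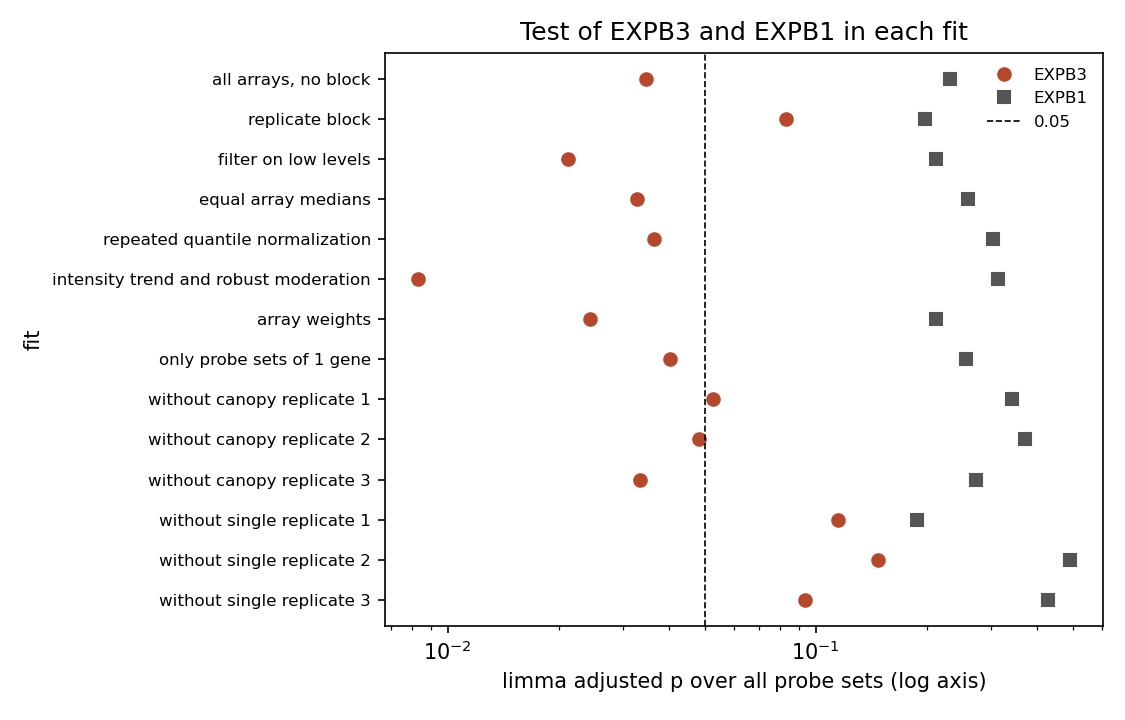
Adjusted p of limma over all probe sets tested (log axis) for EXPB3 (circles) and EXPB1 (squares) in the fit of all arrays and in each of 13 alternative fits, with the threshold of 0.05 as a dashed line. EXPB3 lies below the threshold in 8 of the 13 alternatives, and EXPB1 in none.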

How the data were processed

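The authors deposited RMA values (background-corrected, equalised and summarised per probe set), and the submitters' processing notes name R 2.15.0. The chip definition was not given in the sources used here. Deposited values were read as log2, since the hybridisation controls rose by 1.09 to 1.15 units per doubling of their concentration, a rough check across probe sets. Array medians lay between 1.29 and 1.32, and the zero point is unknown. The medians averaged 1.291 on canopy arrays and 1.313 on single-plant arrays, and the upper quartiles 2.955 and 2.996 (log2). In both measures all canopy arrays were the lower ones (exact permutation p = 0.1 each, the smallest possible). Precision is limited by the number of arrays.

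Probe sets were named from the platform annotation, matched by gene number to the RefSeq table of TAIR10.1 (13436 of 13513 probe sets of 1 gene matched, 503 had several genes and 8730 none listed). All 22746 non-control probe sets were tested for canopy minus single with limma 3.58.1 (R 4.3.3, lmFit and eBayes, two-sided), without a level filter or block, and the fit was tested on simulated data. Fold changes are antilogs of log2 differences. Wall-gene lists were matched by symbol. Named besides the β-expansins were the 5 closest profiles, the 3 lowest and 3 highest other expansins, the 2 genes of smallest p per wall list and chromosome neighbours. Members and lists were chosen with earlier results of these data known. After values were seen, 2 list patterns that matched unrelated genes and the marker FDH, whose probe set is of formate dehydrogenase, were dropped. Arrays with the same replicate number had deviations from their group means that correlated at 0.0024, 0.0989 and -0.064 across probe sets, so the numbers were not taken to pair the arrays.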

Additional observations from a re-analysis of the deposited data

How the results depend on the processing

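EXPB3 passed in 8 of the 13 alternatives, and its difference was negative in all 13. With 1 array left out that sign was fixed beforehand, since the groups do not overlap. The fits with the replicate block, the level filter, the intensity trend and probe sets of 1 gene kept the main estimate of -1.097. EXPB3 did not pass with the replicate block (limma adjusted p = 0.0832) or in 4 of the 6 fits that left out 1 array, over which the difference ran from -1.25 to -0.89. The cause was not tested. EXPB1 and EXPB2 passed in none, with negative differences throughout. For EXPB1, whose groups do not overlap either, the sign with 1 array left out was likewise fixed. The EXPB3 minus EXPB1 change lay between -0.83 and -0.48. Paired by the replicate block, this change gave an exact permutation p of 0.25. That is the smallest p so few pairs allow, so the paired test cannot show whether pairing weakened the result. The number of expansins called was 0 with the replicate block, 0 to 1 with 1 array left out, 0 at an adjusted p under 0.01 and 2 under 0.1. Over all probe sets, 154 calls became 63 with the replicate block and 17 to 159 with 1 array left out. There were 4 at an adjusted p under 0.01 and 369 under 0.1. The calls rose to 195 with the filter on low levels, 218 with an intensity trend and 169 with array weights. They were 157 with equal array medians and 151 after a repeated quantile normalization. The fit of the 13513 probe sets of 1 gene alone gave 53, a count over fewer probe sets than the 22746 of the main fit. With 1 array left out the sign turned for EXPB5 (-0.0033 to 0.13), EXPA24 (-0.039 to 0.10), AT2G20725 (-0.36 to 0.036) and AT4G28230 (-0.068 to 0.029), and for AT4G28230 also with equal array medians (0.0094). None of these had passed. The filter on low levels left no value for EXPB5, and no expansin has several probe sets to average.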
